A study of Mus musculus with 12 samples.

Results

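The response of the mouse kidney to ischemia/reperfusion injury (IRI) was compared between Ybx3 knockout and wild-type mice as a difference of differences, IRI minus control in knockout kidneys less IRI minus control in wild-type kidneys. All 12 kidney RNA libraries of the series entered it, 3 in each of 4 groups: Ybx3 knockout after IRI, Ybx3 knockout control, wild type after IRI and wild type control. The genotype label of the knockout groups names the deletion and not its extent, its promoter or the cells it acts in. The sources used here state neither age, sex and strain nor the time between injury and sampling. The labels do not say that replicates were separate animals, so the p-values cover the spread between these samples alone.

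Ybx3 encodes DNA-binding protein A (DbpA), a cold shock domain protein that binds messenger RNA and Y-box DNA motifs and also sits at epithelial tight junctions. In IRI the blood supply of the kidney is blocked and then restored, which injures the energy-dependent tubule cells most. Injured tubule cells switch on injury genes such as Havcr1 and Lcn2 and switch off the transport genes of their segment, and immune cells enter the tissue. The interaction asks for each gene whether that response was larger, smaller or of another sign without Ybx3.

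Total counts ran from 39074224 to 67948710 per library, and 19218 of 42748 genes had enough counts to be tested. The libraries differed in ways that the labels do not give. The summed level of 4 Y-linked genes was 45.2, 227 and 1.26 CPM (counts scaled by library size) in knockout IRI replicates 1 to 3, against 1.18, 248 and 261 CPM in their controls, and 207, 33.2 and 307 CPM in wild-type IRI, against 1.14, 1.79 and 1.54 CPM in their controls. The wild-type control libraries were all low and the wild-type IRI libraries all higher, while the knockout groups each held low and high libraries. In wild type the Y-linked level and the injury therefore cannot be told apart, and the value in a fit with that level as a covariate is given beside each printed interaction of a gene that it moved by over 1.5 times. The summed level of 12 tested adrenal genes was 361, 1698 and 41.5 CPM in knockout IRI and 38.7 to 55.5 CPM in the other 9 libraries. The summed level of 10 genes that define kidney tubule segments was 5386 to 9687 CPM after IRI and 13193 to 14901 CPM without it in knockout, and 4531 to 9591 CPM after IRI and 14818 to 16906 CPM without it in wild type, so that every library held the labelled tissue. In RNA of whole kidney, fewer cells of a type and less RNA per cell cannot be told apart.

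Ybx3 itself (ENSMUSG00000030189, chromosome 6, 131364855 to 131388476, mm10) had 13.6, 15.6 and 18.6 CPM in knockout IRI kidneys, against 12.9, 9.28 and 9.47 CPM in knockout control kidneys, and 81.0, 53.9 and 104 CPM in wild-type IRI kidneys, against 36.9, 33.0 and 30.2 CPM in wild-type control kidneys. Every knockout library lay below every wild-type library. Ybx3 was at -2.33 log2 in knockout against wild type after IRI (edgeR adjusted p = 0.00719). Between the genotypes edgeR called 2 genes after IRI (0.0104%), 1 higher (0.0052%) and 1 lower (0.0052%), Hist4h4 and Ybx3. It called 2 genes in controls (0.0104%), 1 higher (0.0052%) and 1 lower (0.0052%), Hist4h4 and Klrb1-ps1, and these genes other than Ybx3 were singled out after their values were seen. The response of Ybx3 was 0.59 log2 (SE 0.22, edgeR adjusted p = 0.144) in knockout and 1.26 log2 (SE 0.22, edgeR adjusted p = 0.00568) in wild type. The interaction of Ybx3 was -0.67 log2, with a 95% interval of -1.36 to 0.03. The paralog Ybx1, another Y-box protein, had library responses of -0.30, -0.21 and -0.27 log2 in knockout and 0.49, 0.23 and 0.85 log2 in wild type, with an interaction of -0.85 log2 (95% interval -1.53 to -0.17, edgeR adjusted p = 0.666). It was -0.26 log2 with the Y-linked covariate. Of 7 tested cold shock domain genes, the family of Ybx3 and Ybx1, 0 changed in knockout, and 2 rose and 1 fell in wild type.

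No gene passed the interaction test: edgeR's quasi-likelihood test called 0 of 19218 genes at a Benjamini-Hochberg adjusted p under 0.05, and the smallest adjusted p was 0.666. At an unadjusted p under 0.05 stood 1350 genes (7.02%), 667 with the knockout response above the wild-type response (3.47%) and 683 with it below (3.55%). DESeq2 called 32 genes, 11 with the knockout response above and 21 below, and limma-voom called 0. Leaving out knockout control replicate 1, the only knockout control library of low Y-linked level, gave 25 edgeR calls, 3 above and 22 below, of which DESeq2 also called 7. In the fit with the Y-linked covariate 367 genes stood at an unadjusted p under 0.05, and 0 were called. When 1 library was left out, that count was 2376, 760 or 694 without knockout control replicate 1, 2 or 3, 845 without knockout IRI replicate 1, 841 or 898 without wild-type control replicate 2 or 3, and 4181 without wild-type IRI replicate 2. It was 2981 (15.3%) without both libraries of intermediate Y-linked level, knockout IRI replicate 1 and wild-type IRI replicate 2, and 797 (3.97%) without knockout IRI replicates 1 and 2.

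The interval of the interaction says what the 12 libraries could bound. It could be computed for 19193 genes, and its median standard error was 0.31 log2. In 49.9% of those genes the 95% interval, not adjusted for the number of genes, lay wholly within 1 log2 unit of 0. For the other genes a difference between the genotypes of more than 1 log2 unit lay inside the interval.

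Both genotypes responded to IRI. In knockout kidneys 1215 genes changed after IRI (6.32%), 749 rose (3.9%) and 466 fell (2.42%). In wild-type kidneys 4320 genes changed (22.5%), 2512 rose (13.1%) and 1808 fell (9.41%). The calls in knockout numbered 44 without knockout IRI replicates 1 and 2, the libraries of high adrenal level, and those in wild type 306 with the Y-linked covariate, so the counts of the genotypes do not measure a difference between them. When 1 library was left out the calls in knockout numbered 178 or 213 without knockout control replicate 2 or 3, 252 or 442 without knockout IRI replicate 2 or 3, 729 or 774 without wild-type control replicate 2 or 3, and 1835 or 2889 without wild-type IRI replicate 2 or 3. Those in wild type numbered 2364, 1570 or 1694 without wild-type control replicate 1, 2 or 3, and 2072 or 7129 without wild-type IRI replicate 1 or 2. Of the genes named below, 26 were called in knockout and 47 in wild type. In every fit that left out 1 library, 7 of the 26 and 34 of the 47 were called. The numbers were 21 and 14 with the Y-linked covariate, 4 and 45 without the libraries of high adrenal level, and 11 and 43 with the replicate number as a block.

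The responses went the same way in most genes. Of 928 genes called in both genotypes, 608 rose in both, 320 fell in both and 0 went opposite ways. Of 3392 genes called in wild type and not in knockout, 94.1% had the same sign in knockout. Of 287 called in knockout and not in wild type, 91.3% had the same sign in wild type. Over the 14611 genes called in neither genotype that share was 65.6%. The knockout and wild-type responses have no library in common.

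To compare the size of the responses, genes were taken by the mean of both responses, which weights the genotypes equally. That mean passed the edgeR test in 5738 genes (29.9%), 3256 raised (16.9%) and 2482 lowered (12.9%). Among the raised genes the median response was 0.48 log2 in knockout and 0.71 log2 in wild type, and among the lowered genes it was -0.57 log2 in knockout and -0.85 log2 in wild type. The response was larger in size in knockout in 24.4% of the 5738 genes, and 29 had opposite signs, a count that the choice on the mean keeps small. Over all 19218 tested genes, most of them not called, the response was already smaller in size in knockout in 67.4%. The major axis slope of the knockout on the wild-type response was 0.73, where 1 would be equal size, with a standard deviation of 0.33 over the 9 pairings of a knockout with a wild-type IRI library.

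**Figure D1:**
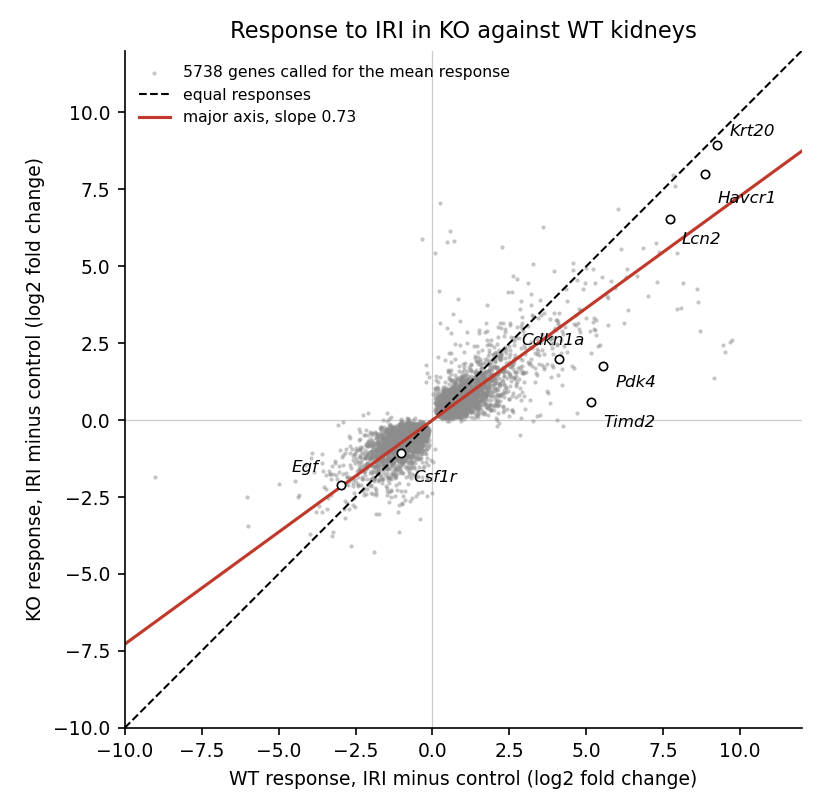
Log2 fold change of IRI against control in knockout kidneys (vertical axis) and in wild-type kidneys (horizontal axis) for the 5738 genes called for the mean of both responses. The dashed line marks equal responses and the solid line the major axis of slope 0.73, named genes are open circles, and the injury genes Krt20, Havcr1 and Lcn2 lie at the upper right in both genotypes.

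The smaller size in knockout was not shared by every library. Over the raised genes the median response, as log2 CPM less the mean of the same-genotype controls, was 0.33, 0.60 and 0.47 in knockout IRI replicates 1 to 3, against 0.73, 0.44 and 0.82 in wild-type IRI replicates 1 to 3. Over the lowered genes it was -0.39, -0.75 and -0.54 in knockout, against -0.92, -0.51 and -1.08 in wild type. Wild-type IRI replicate 2 lay within the knockout range in both directions, so the groups overlapped. That library also had the lowest Y-linked level of the wild-type IRI libraries, and its part in the result was not tested beyond leaving it out. The slope without it was 0.52 and with it 0.73, and over all 12 fits that left out 1 library it ran from 0.52 to 0.86. Set against single libraries, the slope ran from 0.39 for knockout replicate 1 against wild-type replicate 3 to 1.44 for knockout replicate 2 against wild-type replicate 2. With the Y-linked covariate it was 0.83, and without both libraries of high adrenal level 0.81.

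**Figure D2:**
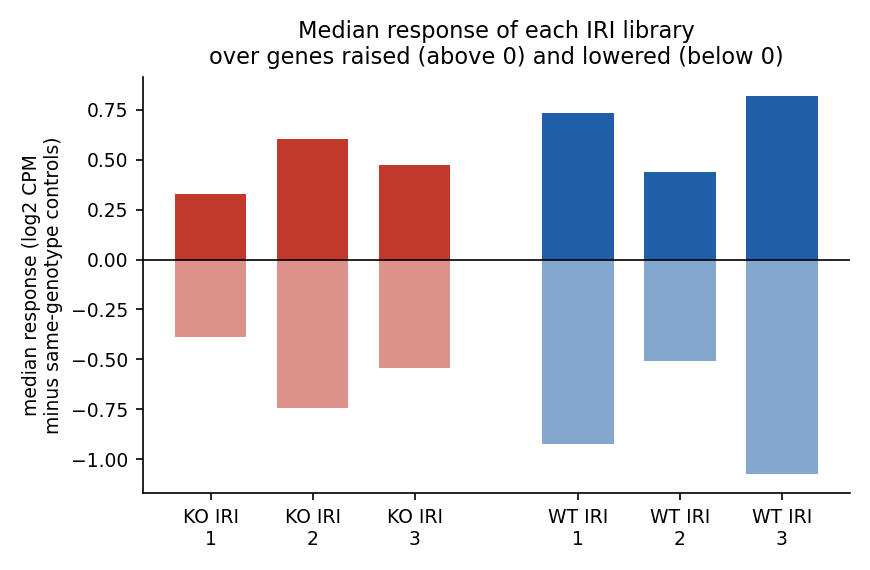
Median response of each IRI library, in log2 CPM less the mean of the controls of the same genotype, over 3256 raised genes (bars above 0) and 2482 lowered genes (bars below 0). Knockout libraries are red and wild-type libraries blue, and wild-type IRI replicate 2 falls between knockout replicates 1 and 2.

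Tubular injury genes rose strongly in both genotypes. Of 31 tested genes of tubular injury and repair, 21 rose in knockout and 26 in wild type, none fell in either, and the median response was 1.61 log2 in knockout and 2.15 log2 in wild type, against 0.02 log2 over all tested genes in each genotype. The list's median interaction was -0.36 log2, and -0.38 log2 with the Y-linked covariate. The interaction lay above 0 in 7 genes of the list. Over all tested genes the median was -0.01 log2, and 9424 of 19218 lay above 0. Havcr1, which encodes the phosphatidylserine receptor KIM-1 of injured proximal tubules, had 234, 463 and 204 CPM in knockout IRI and 769, 358 and 720 CPM in wild-type IRI, against 0.858 to 1.57 CPM in knockout control and 1.12 to 1.46 CPM in wild-type control. Wild-type IRI replicate 2 lay below knockout IRI replicate 2, and the other 2 wild-type IRI libraries were the highest of all. Havcr1 rose by 8.002 log2 in knockout (SE 0.37, edgeR adjusted p = 6.3e-05) and by 8.84 log2 in wild type (SE 0.37, edgeR adjusted p = 3.1e-05), and its interaction was -0.84 log2 (95% interval -2.004 to 0.32). The interaction of Havcr1 was 0.17 log2 with the Y-linked covariate. Lcn2, which encodes the siderophore-binding lipocalin NGAL, had 42.3, 95.4 and 64.3 CPM in knockout IRI and 237, 84.8 and 299 CPM in wild-type IRI. Its interaction was -1.16 log2 (95% interval -2.77 to 0.44), and -0.73 log2 with the covariate. Krt20, a keratin of injured tubule epithelium, rose by 8.95 log2 in knockout (edgeR adjusted p = 0.00167) and by 9.25 log2 in wild type (edgeR adjusted p = 0.000638), and its interaction of -0.30 log2 had a 95% interval of -2.85 to 2.24. Anxa3, an annexin, had a narrower interval: it rose by 1.34 log2 in knockout (edgeR adjusted p = 0.00423) and by 1.97 log2 in wild type (edgeR adjusted p = 0.000468), with an interaction of -0.63 log2 (95% interval -1.17 to -0.09).

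Genes of the NRF2 and antioxidant list also had more calls in wild type, as all tested genes did. Of the list's 29 tested genes, 4 rose in knockout and 16 in wild type, against 3.9% and 13.1% of all tested genes. The interaction was below 0 in 25. The median responses were 0.46 log2 in knockout and 0.56 log2 in wild type. Hmox1, which encodes heme oxygenase, had 40.0, 92.0 and 26.6 CPM in knockout IRI and 255, 51.9 and 165 CPM in wild-type IRI, against 8.08 to 11.7 CPM in knockout control and 6.53 to 9.63 CPM in wild-type control. Its IRI libraries overlapped between the genotypes through wild-type replicate 2, and the interaction was -1.89 log2 (95% interval -3.52 to -0.25, edgeR adjusted p = 0.666). Gclm, the modifier subunit of glutathione synthesis, had library responses of 0.03, 0.46 and -0.19 log2 in knockout and 1.37, 0.56 and 1.18 log2 in wild type, which did not overlap. Its interaction was -0.96 log2 (95% interval -1.61 to -0.31). With the covariate the interactions were -0.77 log2 for Hmox1 and -0.42 log2 for Gclm. Fth1, the heavy chain of the iron store ferritin, rose by 0.86 log2 in knockout (edgeR adjusted p = 0.042) and by 1.75 log2 in wild type (edgeR adjusted p = 0.00179). The median interaction of the NRF2 list was -0.61 log2, and -0.11 log2 with the Y-linked covariate.

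Of 18 p53 and cell cycle arrest genes 3 rose in knockout and 10 in wild type, against 3.9% and 13.1% of all tested genes. The interaction was below 0 in 16, with a median of -0.42 log2, or -0.43 log2 with the Y-linked covariate. Cdkn1a, the cyclin-dependent kinase inhibitor p21, had 18.0, 39.4 and 26.5 CPM in knockout IRI and 62.3, 27.9 and 274 CPM in wild-type IRI, against 14.99, 2.70 and 3.72 CPM in knockout control kidneys and 5.58, 7.52 and 8.15 CPM in wild-type control. Wild-type IRI replicate 3 stood far above the rest and wild-type replicate 2 inside the knockout range. The interaction of Cdkn1a was -2.13 log2 (95% interval -4.56 to 0.31), and it ran from -2.59 to -0.70 log2 when 1 library was left out. Pdk4, the kinase that shuts off pyruvate dehydrogenase, had the same high library, with 34.4, 59.5 and 82.1 CPM in knockout IRI and 153, 58.7 and 2320.3 CPM in wild-type IRI. Its interaction was -3.77 log2 (95% interval -6.99 to -0.55) and moved between -4.49 and -0.78 log2 when 1 library was left out. Of 19 immediate early genes 6 rose in knockout and 14 in wild type, with medians of 1.30 and 1.90 log2 in knockout and wild type. Their median interaction was -0.60 log2, and -0.50 log2 with the Y-linked covariate.

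Among the injury, stress and immune lists the neutrophil genes had the widest gap between the median responses of the genotypes. Of 10 tested neutrophil genes 3 rose in knockout and 8 in wild type, against 3.9% and 13.1% of all tested genes. Their median responses were 2.66 log2 in knockout and 5.02 log2 in wild type, and the interaction was below 0 in all 10. Their summed level was 21.0, 45.5 and 29.6 CPM in knockout IRI and 69.8, 27.6 and 102 CPM in wild-type IRI, against 3.93 to 4.25 CPM in knockout control and 3.62 to 4.10 CPM in wild-type control. The IRI groups overlapped, with wild-type replicate 2 below knockout replicates 2 and 3. S100a9, a calcium-binding alarmin of neutrophils, had 1.06, 2.22 and 1.24 CPM in knockout IRI and 6.74, 1.75 and 9.11 CPM in wild-type IRI. Its interaction was -1.97 log2 (95% interval -4.28 to 0.33). Retnlg, a resistin-like protein of neutrophils, stayed under 0.3 CPM in knockout IRI and reached 2.47 CPM in wild-type IRI, with an interaction of -2.98 log2 (95% interval -5.65 to -0.30). With the covariate the interactions were -0.81 log2 for S100a9 and -1.82 log2 for Retnlg. The median interaction of the neutrophil list was -1.57 log2, and -0.81 log2 with the Y-linked covariate.

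Of 29 cytokine and NF-kB genes 13 rose in knockout and 19 in wild type, against 3.9% and 13.1% of all tested genes. The interaction was below 0 in 24, with a median of -0.46 log2, or -0.16 log2 with the Y-linked covariate. Cxcl2, a chemokine that draws neutrophils, had 0.216, 0.578 and 0.643 CPM in knockout IRI and 2.56, 0.652 and 21.7 CPM in wild-type IRI, and every control library was at or under 0.0613 CPM. Every wild-type IRI library lay above every knockout IRI library, wild-type replicate 2 by little. Cd14, the lipopolysaccharide co-receptor of macrophages and monocytes, had 5.33, 11.2 and 13.4 CPM in knockout IRI and 40.7, 15.4 and 105 CPM in wild-type IRI, against 1.79 to 2.57 CPM in knockout control and 2.28 to 3.13 CPM in wild-type control. In level all wild-type IRI libraries lay above all knockout IRI libraries, though wild-type replicate 2 by little. The library responses of Cd14 overlapped, at 1.30, 2.38 and 2.62 log2 in knockout and 3.96, 2.57 and 5.33 log2 in wild type. Cd14 rose by 2.20 log2 in knockout (SE 0.56, edgeR adjusted p = 0.0476) and by 4.37 log2 in wild type (SE 0.55, edgeR adjusted p = 0.00252), with an interaction of -2.17 log2 (95% interval -3.90 to -0.44, edgeR adjusted p = 0.666). Lif, a cytokine of the interleukin-6 family, rose by 2.87 log2 in knockout (edgeR adjusted p = 0.021) and by 4.78 log2 in wild type (edgeR adjusted p = 0.00222). Il34, a ligand of the macrophage receptor Csf1r, rose by 2.14 log2 in knockout (edgeR adjusted p = 0.0335) and by 3.92 log2 in wild type (edgeR adjusted p = 0.0023), and its interaction was -1.78 log2 (95% interval -3.29 to -0.27), and -0.85 log2 with the covariate.

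Csf1r itself gave the tightest bound of the genes named here. It had 20.8, 21.0 and 21.2 CPM in knockout IRI, against 42.0, 44.8 and 44.7 CPM in knockout control, with 23.2, 25.2 and 23.3 CPM in wild-type IRI, against 51.6, 45.9 and 47.8 CPM in wild-type control. It fell by 1.06 log2 in knockout (SE 0.08, edgeR adjusted p = 0.000469) and by 1.02 log2 in wild type (SE 0.08, edgeR adjusted p = 0.000364). The interaction was -0.05 log2 with a 95% interval of -0.31 to 0.22.

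**Figure D3:**
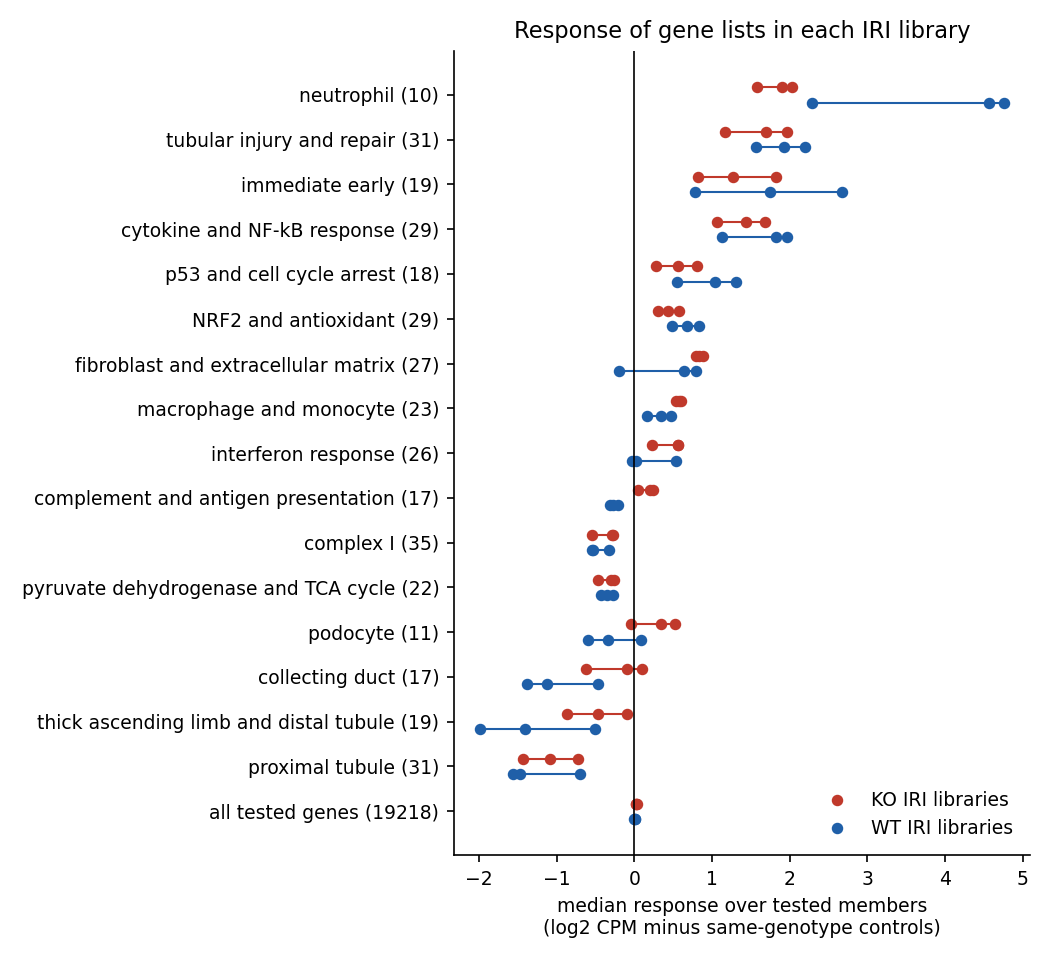
Median response of each IRI library over the tested members of 16 gene lists and over all tested genes (number of members in brackets), in log2 CPM less the mean of the controls of the same genotype. Each point is 1 library, knockout red and above, wild type blue and below, and lines span each group. Neutrophil, macrophage and complement medians do not overlap between genotypes. Neither do those of the fibroblast and matrix list, by little, nor those of all tested genes. Wild-type IRI replicate 2 lies nearest to the knockout libraries in many lists.

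Fewer genes of the later nephron passed the test in knockout than in wild type. The same held over all tested genes, of which 2.42% fell in knockout and 9.41% in wild type. Of 19 thick ascending limb and distal tubule genes 1 fell in knockout and 11 in wild type, with median responses of -0.50 log2 in knockout and -1.11 log2 in wild type, and the interaction was above 0 in all 19. Of 17 collecting duct genes 1 fell in knockout and 8 in wild type, and the interaction was above 0 in 16. Slc12a3, the thiazide-sensitive sodium chloride cotransporter, had 1205, 635 and 1094 CPM in knockout IRI, against 1189, 994 and 1206 CPM in knockout control, with 603, 963 and 403 CPM in wild-type IRI, against 1118, 2116 and 1715 CPM in wild-type control. The knockout groups overlapped each other, and the wild-type groups did not. The interaction of Slc12a3 was 1.12 log2 (95% interval 0.08 to 2.17, edgeR adjusted p = 0.666), and 0.63 log2 with the covariate. Pvalb, the calcium buffer parvalbumin of the early distal convoluted tubule, had 3.30, 0.607 and 2.42 CPM in knockout IRI, against 5.75, 6.70 and 7.67 CPM in knockout control, with 0.0812, 1.14 and 0.915 CPM in wild-type IRI, against 12.3, 11.1 and 7.44 CPM in wild-type control. Its interaction was 2.17 log2 (95% interval 0.13 to 4.22). Calb1, the calcium buffer calbindin of the distal tubule, fell by 1.11 log2 in knockout (edgeR adjusted p = 0.0489) and by 1.999 log2 in wild type (edgeR adjusted p = 0.00305).

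In the collecting duct Scnn1b and Scnn1g, subunits of the epithelial sodium channel ENaC, had like values. Scnn1g had library responses of 0.23, -0.34 and 0.44 log2 in knockout and -0.95, -0.52 and -1.55 log2 in wild type, and Scnn1b of 0.18, -0.14 and 0.36 log2 in knockout and -0.73, -0.30 and -0.86 log2 in wild type. In both genes all knockout responses lay above all wild-type responses, as they did in 11.5% of all tested genes. Both fell in wild type (edgeR adjusted p = 0.0285 for Scnn1g and 0.0357 for Scnn1b), and their interactions were 1.12 log2 (95% interval 0.28 to 1.96) and 0.77 log2 (95% interval 0.19 to 1.35). They were 0.60 log2 for Scnn1g and 0.35 log2 for Scnn1b with the covariate. In uninjured kidneys the median of the distal tubule list was already 0.32 log2 lower in knockout than in wild type, and after IRI it was 0.55 log2 higher. With the Y-linked covariate the median interaction was 0.18 log2 for the distal tubule list and 0.17 log2 for the collecting duct list, against 0.78 and 0.74 log2 without it.

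Umod and Egf are both made in the thick ascending limb and distal tubule. Umod, the urinary protein uromodulin, had interaction 0.61 log2 (95% interval -0.11 to 1.33), and its response passed the test in neither genotype. Egf, epidermal growth factor, had 566, 129 and 479 CPM in knockout IRI, against 1586 to 1827 CPM in knockout control, with 74.2, 366 and 363 CPM in wild-type IRI, against 2003 to 2165 CPM in wild-type control. Both injured groups lay far below their controls and overlapped each other, and the interaction was 0.86 log2 (95% interval -0.88 to 2.60). With the covariate the interactions were 0.16 log2 for Umod and 0.12 log2 for Egf.

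Podocyte genes had an interaction above 0 in all 11 tested members, with a median of 0.61 log2. Of these 1 rose in knockout and 2 fell in wild type. Wt1, a transcription factor of podocytes, had library responses of 0.46, 0.0006 and 0.82 log2 in knockout and -0.40, -0.16 and -0.60 log2 in wild type. Plce1, a phospholipase of podocytes, rose by 0.56 log2 in knockout (edgeR adjusted p = 0.0337) and was at 0.08 log2 in wild type (edgeR adjusted p = 0.696), and its interaction was 0.49 log2 (95% interval 0.07 to 0.90), or 0.27 log2 with the covariate. The median interaction of the podocyte list was 0.13 log2 with the Y-linked covariate.

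The proximal tubule genes had close medians in the genotypes, at -1.03 log2 in knockout and -1.17 log2 in wild type. Of 31 tested genes 11 fell and 1 rose in knockout, and 17 fell and 0 rose in wild type. The raised gene, named after its value was seen, was the sulfate transporter Slc13a1, at 1.41 log2 in knockout (edgeR adjusted p = 0.0431) and 0.96 log2 in wild type (edgeR adjusted p = 0.0714). Slc34a1, the sodium phosphate cotransporter of the proximal tubule, had 2058, 918 and 1375 CPM in knockout IRI, against 2787, 4179 and 4762 CPM in knockout control, with 633, 1656 and 1375 CPM in wild-type IRI, against 3408, 3677 and 3027 CPM in wild-type control. It fell by 1.43 log2 in knockout (edgeR adjusted p = 0.0457) and by 1.46 log2 in wild type (edgeR adjusted p = 0.0204), with an interaction of 0.03 log2 (95% interval -1.10 to 1.16). Lrp2, the endocytic receptor megalin, was at -1.12 log2 in knockout (edgeR adjusted p = 0.0641) and fell by 1.53 log2 in wild type (edgeR adjusted p = 0.0109), with an interaction of 0.41 log2 (95% interval -0.59 to 1.40). With the covariate the interactions were 0.14 log2 for Slc34a1 and 0.06 log2 for Lrp2.

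The lists of nuclear genes of complex I and of the TCA cycle had median interactions of 0.09 and 0.0049 log2. Of 35 complex I genes 4 fell in knockout and 20 in wild type, against 2.42% and 9.41% of all tested genes. But the medians were close, at -0.38 log2 in knockout and -0.47 log2 in wild type, and 0 members stood at an unadjusted interaction p under 0.05. Of 22 genes of pyruvate dehydrogenase and the TCA cycle 5 fell in knockout and 11 in wild type, with medians of -0.35 log2 in knockout and -0.38 log2 in wild type. Ndufs1, the largest core subunit of complex I, had 76.6, 62.8 and 74.3 CPM in knockout IRI, against 89.0, 107 and 108 CPM in knockout control, with 56.4, 71.1 and 56.1 CPM in wild-type IRI, against 103, 95.9 and 91.2 CPM in wild-type control. Injured and control libraries did not overlap in either genotype, and the injured groups overlapped each other. Ndufs1 fell by 0.51 log2 in knockout (edgeR adjusted p = 0.0423) and by 0.66 log2 in wild type (edgeR adjusted p = 0.00761), and the 95% interval of its interaction was -0.25 to 0.55. Idh2, the mitochondrial isocitrate dehydrogenase, had an interaction of 0.20 log2 (95% interval -0.28 to 0.68), or -0.0043 log2 with the covariate, and Nnt, which makes mitochondrial NADPH, of 0.39 log2 (95% interval -0.09 to 0.86). Single genes lay further from 0, in either direction. Cycs, the electron carrier cytochrome c, had library responses of -0.54, -0.72 and -0.46 log2 in knockout and 0.09, -0.11 and 0.81 log2 in wild type, which did not overlap. Its interaction was -0.92 log2 (95% interval -1.70 to -0.14), and -0.42 log2 with the covariate. Cox7a1, a complex IV subunit typical of muscle, was at -0.40 log2 in knockout (edgeR adjusted p = 0.285) and fell by 1.38 log2 in wild type (edgeR adjusted p = 0.00335), with an interaction of 0.98 log2 (95% interval 0.33 to 1.64).

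Ppargc1a, the coactivator PGC-1alpha of mitochondrial biogenesis, had 182, 129 and 177 CPM in knockout IRI, against 307, 223 and 228 CPM in knockout control, with 110, 163 and 68.8 CPM in wild-type IRI, against 219, 261 and 309 CPM in wild-type control. Its level was lower in each injured library than in each control library of the same genotype. It fell by 1.21 log2 in wild type (edgeR adjusted p = 0.0143) and was at -0.63 log2 in knockout (edgeR adjusted p = 0.198). The interaction was 0.57 log2 (95% interval -0.28 to 1.43), and 0.04 log2 with the Y-linked covariate.

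More interferon response genes were called higher after IRI than in control in knockout than in wild type. Of 26 interferon response genes 5 rose in knockout and 1 in wild type, against 3.9% and 13.1% of all tested genes, and 1 fell in wild type. The interaction was above 0 in 23. Its median was 0.26 log2, or 0.32 log2 with the Y-linked covariate. In knockout against wild type the median of the list was -0.19 log2 in controls and 0.05 log2 after IRI. Oasl2, an interferon-induced oligoadenylate synthetase-like protein, had library responses of 0.61, 0.89 and 0.90 log2 in knockout and 0.10, 0.31 and 0.27 log2 in wild type, which did not overlap. It rose by 0.79 log2 in knockout (edgeR adjusted p = 0.0214) and was at 0.23 log2 in wild type (edgeR adjusted p = 0.33), with an interaction of 0.56 log2 (95% interval 0.05 to 1.07). Of 27 fibroblast and matrix genes 12 rose and 0 fell in knockout, and 11 rose and 4 fell in wild type. Sparc, a matricellular collagen-binding protein, rose by 1.195 log2 in knockout (edgeR adjusted p = 0.00366) and by 0.73 log2 in wild type (edgeR adjusted p = 0.00816). Lum, which encodes the proteoglycan lumican, was at -0.40 log2 in knockout (edgeR adjusted p = 0.488) and fell by 2.03 log2 in wild type (edgeR adjusted p = 0.00348), with an interaction of 1.63 log2 (95% interval 0.67 to 2.59), or 0.95 log2 with the covariate.

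Calls among the myeloid genes went both ways. Of 23 macrophage and monocyte genes 4 rose and 2 fell in knockout, and 8 rose and 3 fell in wild type. The library medians of this list were 0.57, 0.60 and 0.53 log2 in knockout and 0.47, 0.16 and 0.34 log2 in wild type, which did not overlap. Those over all tested genes did not overlap either. In knockout against wild type the median of the macrophage list was -0.24 log2 in controls and -0.18 log2 after IRI. C3ar1, the receptor of the complement fragment C3a, had 2.12, 1.73 and 1.41 CPM in knockout IRI, against 1.07, 1.07 and 0.996 CPM in knockout control, with 1.24, 1.45 and 0.766 CPM in wild-type IRI, against 1.75, 1.74 and 1.33 CPM in wild-type control. It was higher in every injured than in every control knockout library, and the wild-type groups overlapped. Its interaction was 1.22 log2 (95% interval 0.43 to 2.01, edgeR adjusted p = 0.666). C1qc, a subunit of complement C1q made by macrophages, had library responses of 0.57, 0.50 and 0.63 log2 in knockout and 0.05, 0.09 and -0.55 log2 in wild type, which did not overlap, and an interaction of 0.68 log2 (95% interval 0.12 to 1.24). Vcam1, an adhesion molecule and a member of the tubular injury list, rose by 0.78 log2 in knockout (edgeR adjusted p = 0.0262) and was at 0.09 log2 in wild type (edgeR adjusted p = 0.713), with an interaction of 0.69 log2 (95% interval 0.16 to 1.22), or 0.31 log2 with the covariate.

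Among the genes with the smallest interaction p, some kept their value with the Y-linked covariate and others did not. Dbp kept it. It encodes a circadian transcription factor of the PAR bZIP family, and despite its symbol it is not the gene of DbpA (ENSMUSG00000059824, chromosome 7, 45705088 to 45710203, mm10). Dbp had 28.1, 20.02 and 25.5 CPM in knockout IRI, against 20.1, 33.5 and 21.8 CPM in knockout control, with 15.4, 20.4 and 12.8 CPM in wild-type IRI, against 53.3, 37.5 and 45.0 CPM in wild-type control. The wild-type groups did not overlap and the knockout groups did, and the knockout control libraries lay below the wild-type control libraries. Dbp fell by 1.48 log2 in wild type (SE 0.23, edgeR adjusted p = 0.00383) and was at -0.04 log2 in knockout (SE 0.23, edgeR adjusted p = 0.952). Its interaction was 1.44 log2 (95% interval 0.72 to 2.17, edgeR adjusted p = 0.666, DESeq2 adjusted p = 0.0438), and 1.43 log2 with the Y-linked covariate.

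Other clock genes, looked at because of Dbp and so chosen after values were seen apart from Per2, had interactions in both directions. Of 16 tested clock genes, Dbp among them, the interaction was above 0 in 9. At an unadjusted p under 0.05 stood 4 with it above 0 and 3 with it below. Over all tested genes those shares were 3.47% and 3.55%. Dbp, whose small interaction p led to the list, is among the 4, so these counts cannot be read as an excess over the shares. Whether the clock genes changed together was not tested. Per2, a repressor of the clock, had library responses of 0.30, 0.33 and 0.86 log2 in knockout and -0.53, -0.50 and -0.48 log2 in wild type. Npas2, an activator of the clock, had library responses of -0.38, -0.35 and -0.87 log2 in knockout and 0.98, 0.87 and 2.85 log2 in wild type, and Arntl, the partner of Npas2, of -0.21, -0.41 and -0.59 log2 in knockout and 0.07, 0.30 and 1.38 log2 in wild type. Tef, a PAR bZIP factor like Dbp, fell by 1.46 log2 in wild type (edgeR adjusted p = 0.00409) and was at -0.68 log2 in knockout (edgeR adjusted p = 0.116). The interactions were 1.04 log2 for Per2 (95% interval 0.50 to 1.58), 0.79 log2 for Tef (0.05 to 1.53), -2.37 log2 for Npas2 (-3.85 to -0.89) and -1.15 log2 for Arntl (-2.27 to -0.03). The hour of sampling is not stated.

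Aldh1b1, a mitochondrial aldehyde dehydrogenase (chromosome 4, 45799022 to 45804604, mm10), had 1.51, 1.38 and 1.98 CPM in knockout IRI, against 1.70, 1.12 and 1.27 CPM in knockout control, with 0.447, 1.45 and 0.830 CPM in wild-type IRI, against 4.59, 3.61 and 3.51 CPM in wild-type control. The wild-type control libraries lay above all the others. The interaction of Aldh1b1 was 2.34 log2 (95% interval 1.25 to 3.43, edgeR adjusted p = 0.666, DESeq2 adjusted p = 0.0117). Ifi27l2a, an interferon-inducible protein (chromosome 12, 103442167 to 103443680, mm10), had 4.76, 5.04 and 5.86 CPM in knockout IRI, against 2.80, 2.59 and 3.15 CPM in knockout control, with 2.74, 3.35 and 2.64 CPM in wild-type IRI, against 6.90, 3.26 and 4.45 CPM in wild-type control. The injured libraries were higher than every control in knockout, while in wild type the groups overlapped. Its interaction was 1.61 log2 (95% interval 0.85 to 2.37, edgeR adjusted p = 0.666, DESeq2 adjusted p = 0.0247). Podxl2, a podocalyxin-like sialomucin (chromosome 6, 88842558 to 88875044, mm10), had 1.66, 2.81 and 1.43 CPM in knockout IRI, against 1.66, 0.951 and 0.807 CPM in knockout control, with 0.447, 0.839 and 0.617 CPM in wild-type IRI, against 1.83, 1.89 and 1.83 CPM in wild-type control. It fell by 1.54 log2 in wild type (edgeR adjusted p = 0.0141), and its interaction was 2.34 log2 (95% interval 1.27 to 3.40, edgeR adjusted p = 0.666, DESeq2 adjusted p = 0.0161).

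The smallest interaction p of all belonged to Pla2g2c, a secreted phospholipase A2 (chromosome 4, 138724792 to 138746132, mm10), at a level near the filter. It had 0.246, 0.356 and 0.371 CPM in knockout IRI, against 0.138, 0.169 and 0.158 CPM in knockout control, with 0.0406, 0.0745 and 0.0638 CPM in wild-type IRI, against 0.304, 0.355 and 0.193 CPM in wild-type control. Injured libraries were all higher than controls in knockout and all lower than controls in wild type. The interaction was 3.25 log2 (95% interval 2.11 to 4.40, edgeR adjusted p = 0.666, DESeq2 adjusted p = 0.0388). Lrrc6, a ciliary assembly factor, and P2ry10, a lymphoid lysophospholipid receptor, stood at similar levels of under 1 CPM in every library, with interactions of 1.65 log2 (95% interval 0.83 to 2.46) and -2.34 log2 (95% interval -3.55 to -1.13). With the Y-linked covariate the interaction was 3.26 log2 for Pla2g2c, 1.69 log2 for Aldh1b1, 1.43 log2 for Ifi27l2a and 2.15 log2 for Podxl2. In all, the knockout and wild-type IRI library responses did not overlap in 22.1% of tested genes, and every knockout response was above 0 with every wild-type response below 0 in 2.38%.

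**Figure D4:**
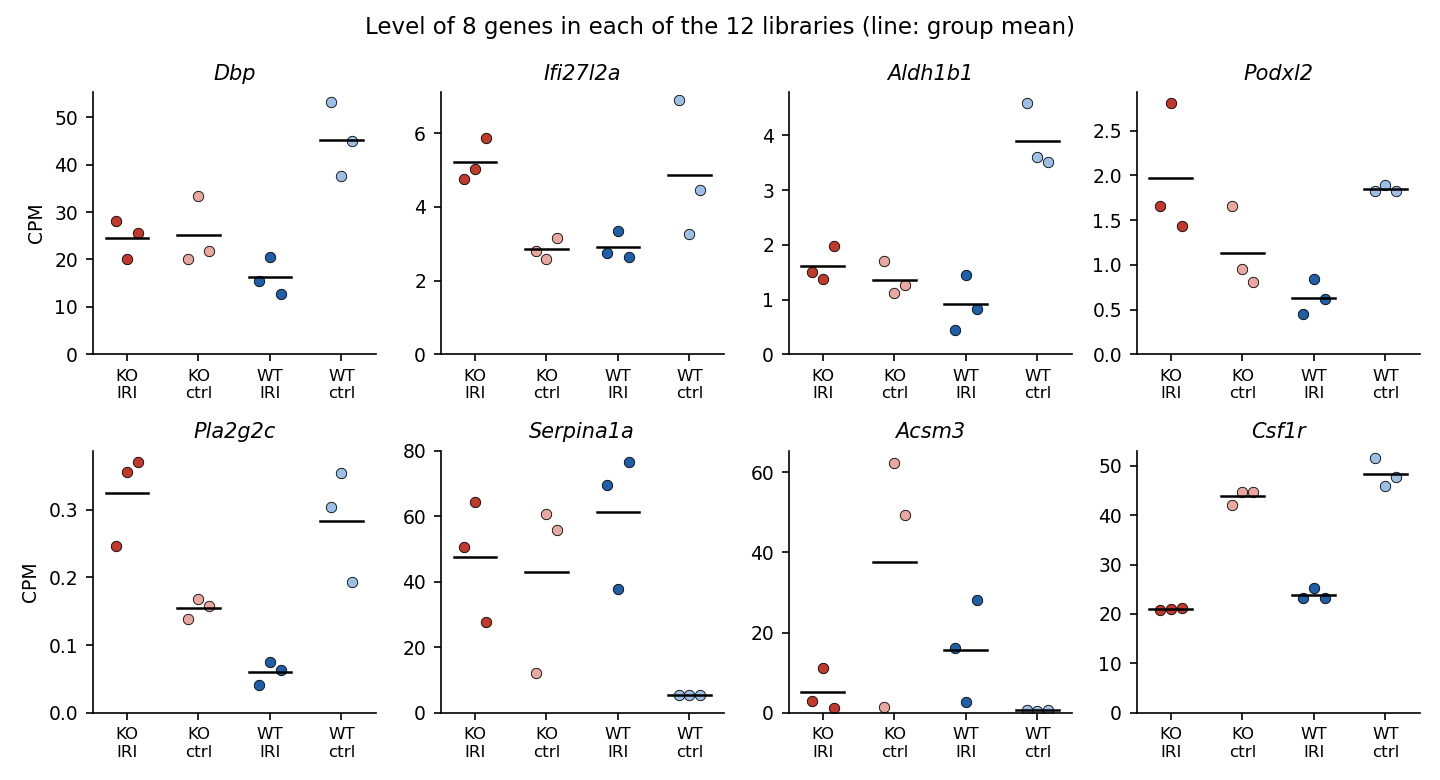
Level of 8 genes in CPM in each library of the 4 groups, with points for libraries in replicate order and lines for group means. In Dbp, Aldh1b1 and Podxl2 the wild-type IRI libraries lie below the wild-type controls while the knockout groups overlap, Serpina1a and Acsm3 spread widely within the knockout control group, and Csf1r is lower after IRI in both genotypes.

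The genes that followed the Y-linked level were led by the Serpina1 family on chromosome 12, which encodes the alpha-1-antitrypsin protease inhibitors. Serpina1a had 50.6, 64.3 and 27.8 CPM in knockout IRI, against 12.001, 60.8 and 56.0 CPM in knockout control, with 69.6, 37.9 and 76.6 CPM in wild-type IRI, against 5.30, 5.47 and 5.49 CPM in wild-type control. The low libraries were the wild-type controls and knockout control replicate 1, and knockout IRI replicate 3 was next, which are the 5 libraries of low Y-linked level. Serpina1a rose by 3.50 log2 in wild type (SE 0.51, edgeR adjusted p = 0.00359) and was at 0.15 log2 in knockout (SE 0.50, edgeR adjusted p = 0.907). Its interaction was -3.35 log2 (95% interval -4.91 to -1.79, edgeR adjusted p = 0.666, DESeq2 adjusted p = 0.0069), and -1.25 log2 with the Y-linked covariate. Without knockout control replicate 1 the interaction of Serpina1a was -3.79 log2 and passed the edgeR test (adjusted p = 0.0291). Serpina1b, Serpina1c and Serpina1e had interactions of -3.29, -3.29 and -3.32 log2, and of -1.39, -1.30 and -1.40 log2 with the covariate.

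The values of the 4 genes are not independent, because their sequences are nearly the same and reads may be split among them, and the sources used here do not say how shared reads were counted. Below are their promoter windows from RefSeq (GRCm38.p6, 250 bases before to 50 after the start). They lie on the minus strand and read 5′ to 3′ along the gene, with the Y-box letters CCAAT and ATTGG in capitals. The windows show how alike the promoters are. How alike the transcripts are, on which shared reads depend, was not measured here. Pairs of these windows were 92.0% to 97.6% identical over their aligned bases.
Serpina1a (chr12:103863570-103863869): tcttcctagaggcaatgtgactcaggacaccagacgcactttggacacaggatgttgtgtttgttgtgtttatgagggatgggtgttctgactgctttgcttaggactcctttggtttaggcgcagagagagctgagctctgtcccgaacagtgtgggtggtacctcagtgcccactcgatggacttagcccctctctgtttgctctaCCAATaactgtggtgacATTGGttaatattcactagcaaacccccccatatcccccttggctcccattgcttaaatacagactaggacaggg
Serpina1b (chr12:103738140-103738439): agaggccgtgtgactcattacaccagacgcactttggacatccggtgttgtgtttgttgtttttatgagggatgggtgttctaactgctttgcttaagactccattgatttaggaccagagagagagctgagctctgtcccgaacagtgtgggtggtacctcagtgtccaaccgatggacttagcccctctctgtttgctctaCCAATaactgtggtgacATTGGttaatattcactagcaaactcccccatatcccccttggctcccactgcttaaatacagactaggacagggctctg
Serpina1c (chr12:103904901-103905200): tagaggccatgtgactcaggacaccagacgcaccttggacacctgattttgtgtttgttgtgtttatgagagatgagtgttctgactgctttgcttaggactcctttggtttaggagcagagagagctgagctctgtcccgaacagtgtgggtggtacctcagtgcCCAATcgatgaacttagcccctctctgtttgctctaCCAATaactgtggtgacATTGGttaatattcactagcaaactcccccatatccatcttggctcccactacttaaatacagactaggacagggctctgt
Serpina1e (chr12:103956848-103957147): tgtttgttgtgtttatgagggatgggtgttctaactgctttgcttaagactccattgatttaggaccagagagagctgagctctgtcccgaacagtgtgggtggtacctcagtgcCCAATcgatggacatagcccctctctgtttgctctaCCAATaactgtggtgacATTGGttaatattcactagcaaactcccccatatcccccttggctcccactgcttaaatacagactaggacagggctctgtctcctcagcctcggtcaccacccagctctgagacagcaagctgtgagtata
All 4 windows hold CCAAT followed shortly by ATTGG, and those of Serpina1c and Serpina1e hold a further CCAAT upstream.

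For contrast, the window of Dbp, a gene whose interaction did not follow the Y-linked level, lies on the plus strand and holds ATTGG at both ends.
Dbp (chr7:45704997-45705296): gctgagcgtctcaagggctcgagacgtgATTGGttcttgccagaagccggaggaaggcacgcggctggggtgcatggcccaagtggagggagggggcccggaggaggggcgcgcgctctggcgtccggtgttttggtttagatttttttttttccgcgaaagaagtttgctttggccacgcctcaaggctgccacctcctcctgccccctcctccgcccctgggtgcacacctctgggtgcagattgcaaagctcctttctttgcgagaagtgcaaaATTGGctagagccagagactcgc
The letters CCAAT or ATTGG, which are each other's reverse complement and so cover both strands, were common. They stood in 37.4% of all 32851 windows of the table and in 37.0% of the windows of tested genes, of which 13151 of 19217 matched by symbol. The share was 34.7% for genes raised in the mean response and 39.6% for genes lowered. It was 35.3% among genes with an unadjusted interaction p under 0.05 and the knockout response above, and 34.8% among those with it below, against 37.0% for tested genes. These letters are a description of the sequence and do not show binding.

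Other genes of this group are known for higher levels in male mouse kidneys or were on the list of such genes. Of 9 tested male-biased genes the interaction was below 0 in all 9, and 8 stood at an unadjusted p under 0.05. The median response was -2.19 log2 in knockout and 4.06 log2 in wild type. Acsm3, a medium-chain acyl-CoA synthetase, had 2.93, 11.3 and 1.29 CPM in knockout IRI, against 1.52, 62.4 and 49.3 CPM in knockout control, with 16.2, 2.72 and 28.2 CPM in wild-type IRI, against 0.589, 0.540 and 0.809 CPM in wild-type control. Its interaction of -7.45 log2 was -2.07 log2 with the Y-linked covariate. Cyp4a12a, a fatty acid hydroxylase, had an interaction of -5.32 log2 (95% interval -8.22 to -2.42), and -1.66 log2 with the covariate. Timd2, a ferritin receptor, had an interaction of -4.55 log2, and -0.38 log2 with the covariate. Ddx3y, a Y-linked RNA helicase, had an interaction of -8.83 log2, and -1.002 log2 with the covariate. Hrg, which encodes the plasma protein histidine-rich glycoprotein, stayed under 2.1 CPM in every library and had an interaction of -3.42 log2 (95% interval -5.12 to -1.73), and -1.62 log2 with the covariate. In the opposite direction Prlr, the prolactin receptor and a gene of higher level in female kidneys, had an interaction of 2.16 log2 (95% interval -0.28 to 4.61), and 0.53 log2 with the covariate.

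**Figure D5:**
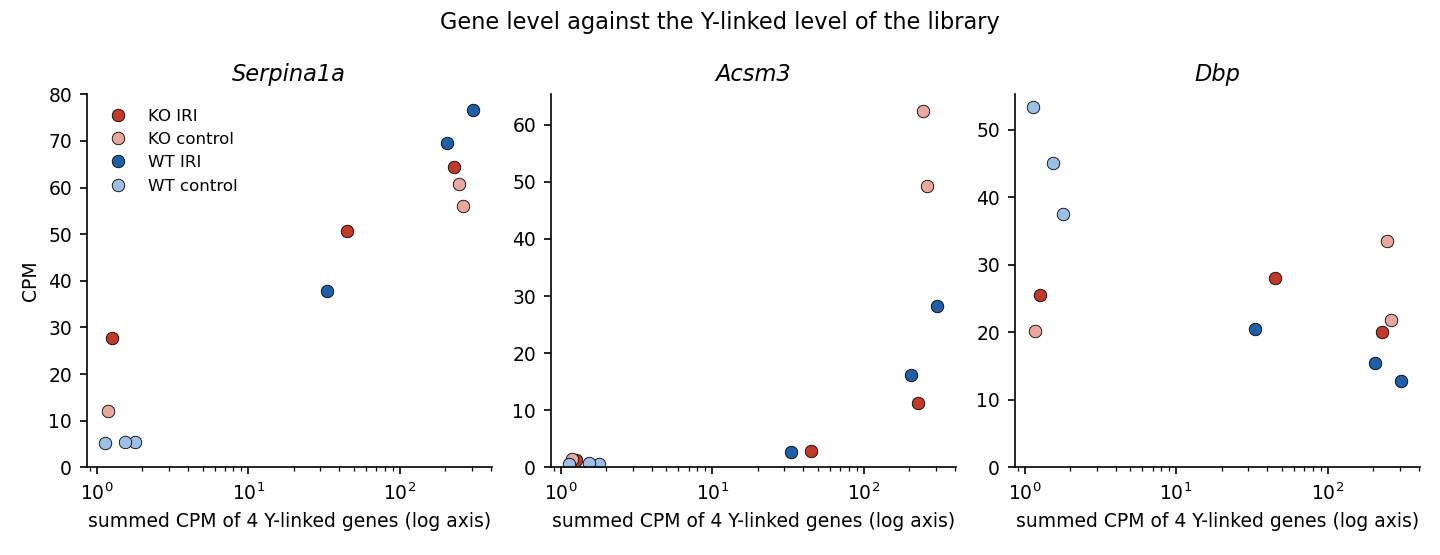
Level in CPM (vertical axis) of Serpina1a, Acsm3 and Dbp against the summed CPM of 4 Y-linked genes (horizontal log axis) in the 12 libraries, coloured by group. Serpina1a and Acsm3 are low in the 5 libraries with a Y-linked sum under 2 CPM and high above 200 CPM, while Dbp is high only in the wild-type control libraries.

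Adrenal genes rose in knockout through 2 libraries. Of 12 tested adrenal genes 8 rose in knockout and 0 in wild type. Star, which brings cholesterol into mitochondria for steroid synthesis, had 107, 535 and 5.29 CPM in knockout IRI, against 5.01, 4.92 and 5.05 CPM in knockout control, with 4.85, 4.60 and 7.17 CPM in wild-type IRI, against 4.97, 5.07 and 5.61 CPM in wild-type control. Hsd3b1, a steroid dehydrogenase, had 59.0, 307 and 0.371 CPM in knockout IRI and at most 1.01 CPM in every other group. Their interactions were 5.35 log2 for Star and 8.12 log2 for Hsd3b1, and -0.01 log2 and -0.24 log2 without knockout IRI replicates 1 and 2. Trank1 followed the same libraries, with 6.13, 27.0 and 1.01 CPM in knockout IRI and at most 1.02 CPM in every other group, and its interaction of 3.99 log2 was 0.49 log2 without them.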

How the data were processed

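The authors deposited whole-number read counts per Ensembl gene for 12 kidney libraries, without normalization. Per the submitters' processing notes, STAR and build mm10 were used, and per the labels' protocols libraries were made from total RNA with rRNA depletion, with a strand-marking kit, and read from both ends. The counting program and its use of strand are unknown here, so genes that overlap or have near-identical copies are uncertain. Xist and the mitochondrial genome were at 0 in every library.

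Counts were tested with edgeR 4.0.16 in R 4.3.3: filterByExpr by group (minimum count 10, minimum total 15), TMM scaling, and 1 quasi-likelihood fit with a coefficient for each of 4 groups. Calls are two-sided at a Benjamini-Hochberg adjusted p under 0.05 over 19218 genes. CPM use the TMM-scaled library size, library responses are log2 CPM (prior count 2) less the mean of the controls of the same genotype, and 95% intervals come from the fit. DESeq2 1.42.0, limma 3.58.1 (voom), other scalings and filters, a replicate block, a Y-linked covariate, and fits leaving out libraries were alternatives, and the procedure was tested on simulated data. Promoter windows were compared with Biopython 1.88.

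Members and lists (39, plus a clock list added after values were seen) were chosen with earlier results of these data known. Genes named were the 12 with the smallest interaction p, 10 set genes, and up to 2 members per list by interaction p and by mean response, plus large mean responses and large interactions whose libraries did not overlap. Tef, Npas2, Arntl and Slc13a1 were chosen after their values were seen. Some genes that this rule took are not named. Replicates of every group differed beyond sampling noise (chi-square per degree of freedom 20.3 to 306 over the pairs), so none was counted as a copy.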

Additional observations from a re-analysis of the deposited data

Results flagged for a closer look

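In the following genes every knockout IRI library moved one way from the mean of its controls and every wild-type IRI library the opposite way. Single IRI and control libraries could still overlap, as they did in knockout in Aldh1b1 and Acsm3. Knockout IRI replicate 2 was above the mean of its controls in Aldh1b1 by only 0.04 log2. Every knockout library was higher and every wild-type library lower in Pla2g2c, Aldh1b1, Podxl2, Lrrc6, Ifi27l2a, C3ar1, Per2 and Wt1, with interactions of 3.25, 2.34, 2.34, 1.65, 1.61, 1.22, 1.04 and 0.87 log2, though knockout IRI replicate 2 was above 0 in Wt1 by only 0.0006 log2, and its interaction was 0.32 log2 with the Y-linked covariate. Every knockout library was lower and every wild-type library higher in Acsm3, Hrg, Npas2, Arntl and Ybx1, with interactions of -7.45, -3.42, -2.37, -1.15 and -0.85 log2. With the Y-linked covariate they were -2.07 log2 for Acsm3, -1.62 log2 for Hrg and -0.26 log2 for Ybx1. The difference itself was tested in each of these genes by the interaction term of edgeR, and each had an adjusted p of 0.666. The first of these patterns held in 2.38% and the second in 2% of all tested genes.

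The same held for the library medians of 2 lists. The male-biased kidney genes had medians of -1.88, -0.57 and -2.16 log2 in knockout and 4.34, 2.01 and 3.44 log2 in wild type, with a median interaction of -5.32 log2, or -0.51 log2 with the Y-linked covariate. The complement and antigen presentation genes had medians of 0.05, 0.24 and 0.20 log2 in knockout and -0.27, -0.22 and -0.31 log2 in wild type, with a median interaction of 0.10 log2. In knockout against wild type the median of this list was -0.25 log2 in controls and -0.06 log2 after IRI. The difference between the genotypes was not tested for either list.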

How the results depend on the processing

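edgeR called 0 genes for the interaction under each alternative other than leaving out knockout control replicate 1 (0 to 25 over the fits that left out 1 library), and DESeq2 called 32. The count of genes called for the response to IRI moved most. In knockout it was 1215, with 2494 by DESeq2, 469 with the replicate block, 44 without both libraries of high adrenal level, and 178 to 2889 when 1 library was left out. In wild type it was 4320, with 2730 with the replicate block, 306 with the Y-linked covariate, 6549 without both libraries of intermediate Y-linked level, 1232 with only the 6 libraries compared, and 1570 to 7129 when 1 library was left out. The mean response was called in 5738 genes, and in 3736 with the Y-linked covariate and 2310 without the libraries of high adrenal level. The slope of the knockout on the wild-type response stayed below 1 under every alternative, from 0.52 to 0.86. The share of intervals within 1 log2 unit was 49.9%, and 47.9% with library size alone, 42.3% with no filter, 60.4% with a filter of 1 CPM in 3 libraries, 47.8% with the replicate block, 47.5% with the Y-linked covariate, 36.2% and 42.0% without the libraries of high adrenal or intermediate Y-linked level, and 43.4% to 59.4% when 1 library was left out.

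Interactions of some named genes changed sign under an alternative. They were 0.17 log2 for Havcr1 and -0.0043 log2 for Idh2 with the Y-linked covariate. They were 0.44 log2 (limma-voom) and 0.12 log2 (replicate block) for Krt20, and 0.095 log2 for Csf1r with library size alone. Without the libraries of high adrenal level they were -0.0503 log2 for Slc34a1, -0.01004 log2 for Star and -0.24 log2 for Hsd3b1, whose response in knockout was then -1.19 log2. Slc34a1 was at -0.042 log2 when both libraries of intermediate Y-linked level were left out. When 1 library was left out Krt20 ran from -0.74 to 1.08 log2 and Slc34a1 from -0.31 to 0.32 log2. The causes were not tested. Of 18 pairs of libraries with the same replicate number in the labels, 0 had deviations from their group means correlated above 0.1. Other differences between libraries of a group enter these deviations too, so they cannot exclude a pairing by number. With 3 libraries a group the median standard error of the interaction was 0.31 log2, and the part of depth in it was not tested. Over all named genes and alternatives, 1479 interaction values kept their direction and call, 17 passed the test in place of missing it and 15 changed sign. Of the IRI responses 1414 kept direction and call, 257 lost the call and 1 changed sign.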

Other observations

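Several gene groups outside the comparisons above had close medians in the genotypes. More members of each were called in wild type, as over all tested genes. Of all tested genes 3.9% rose and 2.42% fell in knockout, and 13.1% rose and 9.41% fell in wild type. Of 12 lymphocyte and NK cell genes 3 fell in knockout and 8 in wild type, with median responses of -1.21 log2 in knockout and -1.40 log2 in wild type. Of 27 cytosolic ribosome genes 4 rose in knockout and 13 in wild type, with medians of 0.31 log2 in knockout and 0.33 log2 in wild type. Of 16 ATP synthase genes 0 fell in knockout and 11 in wild type, with medians of -0.41 log2 in knockout and -0.49 log2 in wild type. Of 24 genes of the integrated and endoplasmic reticulum stress responses 3 rose in knockout and 9 in wild type, with medians of 0.33 log2 in knockout and 0.32 log2 in wild type.

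Cell cycle genes, most of them needed for DNA replication and division, had 1 of 29 members raised in knockout, where 3.9% of all tested genes were, and 5 in wild type, where 13.1% were, so neither count stood far from its background. Their medians were -0.06 log2 in knockout and 0.50 log2 in wild type, and the interaction was below 0 in 23, with a median of -0.42 log2, or -0.24 log2 with the Y-linked covariate. Heat shock, hypoxia and glycolysis genes had median interactions of -0.01, -0.03 and 0.01 log2. Adipose tissue genes had 0 of 12 members called in either genotype and a median interaction of 1.07 log2 (0.05 log2 with the covariate), and skeletal muscle genes had 3 of 7 members lower in wild type and a median interaction of 0.995 log2 (0.34 log2 with the covariate); the part of either tissue in other results was not tested.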
